A study of Homo sapiens with 17 samples.

Results

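A set of 10 genes that mark epithelial or mesenchymal identity was followed in RNA sequencing of Ishikawa cells: the cadherins CDH1 and CDH2, the adhesion molecule EPCAM, the keratins KRT7, KRT8, KRT18 and KRT19, the regulators ESRP1 and GRHL2, and the intermediate filament gene VIM. They were chosen by name from the 60662 genes of the count table, and all 10 members were found there and passed the filter on low counts in every comparison. After 24 h with P4 (progesterone), 8 of the 10 differed from vehicle control cultures, 4 upward (CDH1, KRT7, ESRP1 and VIM) and 4 downward (KRT8, KRT18, KRT19 and CDH2). Across all 16540 genes tested in that comparison, 53% passed the same threshold, so a count of 8 of 10 stands against a response of the greater part of all genes tested. The members did not move by side: epithelial genes rose and fell, and so did the mesenchymal pair.

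Epithelial cells hold together through E-cadherin, the product of CDH1, whose cytoplasmic tail binds catenins at adherens junctions, and through desmosomes anchored to keratin filaments. Keratins polymerise as pairs of a type II and a type I chain, and KRT8 with KRT18 is the pair typical of simple epithelia such as the endometrial lining. In an epithelial to mesenchymal transition (EMT), CDH1 and epithelial regulators such as GRHL2 and the splicing factor ESRP1 are lost, while N-cadherin (CDH2) and vimentin (VIM) are gained.

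Ishikawa cells come from an adenocarcinoma of the human endometrium, so a single cancer line stands here for the endometrial epithelium. Cultures in medium with charcoal-stripped serum were kept for 24 h without treatment (control, n = 3), with Nap alone (Nap only, n = 2), with Nap and an ethanol vehicle listed as 70% (vehicle control, n = 3) or with Nap and P4 (P4 treated, n = 3). Nap is not defined in the sources used here, and the labels name ethanol for the vehicle control alone, so P4 and ethanol cannot be told apart in the comparison of P4 treated with vehicle control cultures. The labels' protocol and the study's methods list P4 at 0.1 and 1.0 mg/ml, while the study's figure legends give other P4 concentrations and another ethanol percentage, so no dose is attached to the values and the 70% is that of the labels. The ethanol concentration reached in the medium is not stated. The replicates are described as biological replicates. Another 6 columns of the table name PSAT1 in both sample title and column name. These 2 labels contradict each other on whether P4 was added, and the columns entered no comparison.

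Total counts ranged from 4999521 (vehicle control replicate 1) to 19704493 over the 11 labelled cultures. Members other than KRT7 had 282 to 9354 counts per culture, and KRT7 had 13 to 90. CDH1, EPCAM, KRT8 and KRT18 summed to 1094 to 1304 CPM (library-scaled counts, with TMM factors) in control, 1022 to 1169 in Nap only, 1064 to 1098 in vehicle control and 859 to 1003 in P4 treated cultures. A list of 15 markers of endometrial stroma, leukocytes and endothelium summed to 8.41 to 8.92 CPM in control, 8.23 to 9.09 in Nap only, 8.70 to 10.4 in vehicle control and 4.26 to 5.62 in P4 treated cultures. Both sums were thus lower with P4, but the genes of the first did not move together. From vehicle control to P4 treated cultures, mean KRT8 went from 395 to 245 CPM and KRT18 from 253 to 201 CPM. CDH1 went from 262 to 311 CPM and EPCAM from 176 to 186 CPM. The part of the sums in the results below was not tested. The sums depend on the genes chosen, and mesenchymal genes outside the 15 were abundant. In control cultures COL1A2 was at 390 ± 73.2 CPM and TNC at 234 ± 16.8 CPM, beside CDH1 at 255 ± 18.7 CPM (SD, n = 3). In P4 treated and vehicle control cultures the endothelial gene CDH5 was at 0 counts, and PECAM1, CD3E, CD14, DCN and PDGFRB had at most 1 count in any of these cultures. These are the lowest of the list, and other genes of the same cell types were counted. In vehicle control and control cultures VWF had 5 to 22 counts, PTPRC 3 to 12, NCAM1 12 to 25 and LUM 2 to 27. With the control cultures included, PDGFRB reached 6 counts and CD14 reached 2. In bulk RNA, fewer cells of a kind and less RNA per cell cannot be told apart.

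KRT8 and KRT18 also have many processed pseudogenes, 50 and 68 in the count table, which are spliced copies lying elsewhere in the genome. A uniquely aligned read is credited to the gene or to a copy by a few differing bases. To show how close such copies are, 30 bases of the coding sequence of each gene are printed with the same stretch of one counted pseudogene, the differing bases in capitals. KRT8P33 lies at chr5:123400922-123402344 (minus strand), is identical to KRT8 at 95.8% of 1422 aligned bases and had 4309 counts over the 11 cultures. KRT18P4 lies at chr20:49956745-49958032 (plus strand), is identical to KRT18 at 92.0% of 1285 aligned bases and had 1494 counts. The stretches begin at coding base 141 of KRT8 and 128 of KRT18, and were taken from GENCODE 29 transcripts.
KRT8: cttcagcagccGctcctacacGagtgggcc
KRT8P33: cttcagcagccActcctacacAagtgggcc
KRT18: gttcccggatctccgTgtcccGctccacca
KRT18P4: gttcccggatctccgAgtcccActccacca

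Of all windows of 75 bases (the read length) in the annotated mRNA, 19.96% in KRT8 and 25.54% in KRT18 also occur in a transcript of another gene, which were 12 pseudogenes for KRT8 and, for KRT18, its pseudogenes and the overlapping KRT8 gene. Reads that match a pseudogene in full cannot be placed uniquely. For VIM the share was 33.8%, all with the antisense genes VIM-AS1 and AL133415.1, whose own counts did not exceed 14 and 1 in any labelled culture. There the transcripts overlap in the genome, so the strand setting decides which gene a read is assigned to. For KRT7 it was 9.05%, with KRT7-AS (at most 6 counts). No such window was found in KRT19, ESRP1 or GRHL2, and the shares were 1.37% in CDH1, 1.24% in EPCAM and 1.53% in CDH2.

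On GRCh38 (GENCODE 29), EPCAM lies at chr2:47345158-47387601 on the plus strand and VIM at chr10:17228259-17237593 on the plus strand. CDH1 lies at chr16:68737225-68835548 (plus), CDH2 at chr18:27950966-28177446 (minus) and KRT19 at chr17:41523617-41528308 (minus). ESRP1 (chr8:94641074-94707466) and GRHL2 (chr8:101492432-101669726) are both on the plus strand of chromosome 8. The remaining keratins share a cluster on chromosome 12: KRT7 at chr12:52232520-52252186 (plus), KRT8 at chr12:52897187-52949954 (minus) and KRT18 at chr12:52948871-52952901 (plus). The annotated spans of KRT8 and KRT18 overlap by 1084 bases on opposite strands. The strand setting of the counting is not given in the sources used here, so counts from such overlaps are uncertain.

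Levels between genes were compared per length, as RPKM (CPM per kilobase of annotated exons), in the untreated control cultures. KRT18 (88.0 ± 10.4, SD, n = 3) and EPCAM (84.1 ± 2.88) were highest and did not differ beyond their spread. KRT8 followed at 61.1 ± 9.41, CDH1 at 41.3 ± 3.02 and KRT19 at 32.8 ± 3.67. ESRP1 (20.3 ± 0.249) and CDH2 (20.3 ± 2.66) did not differ beyond their spread, nor did VIM (12.8 ± 1.73) and GRHL2 (12.5 ± 0.225). KRT7 stood far below at 1.11 ± 0.147. With the longest transcript as gene length, KRT8 took first place at 147 ± 22.6, above KRT18 at 136 ± 16.1 and EPCAM at 123 ± 4.21. On that scale VIM (24.8 ± 3.34) stood above GRHL2 (14.4 ± 0.260), and KRT19 (55.1 ± 6.18) and CDH1 (52.2 ± 3.82) did not differ beyond theirs. Ishikawa cells in these cultures thus held transcripts of both cadherins and of vimentin beside the keratins. CDH1 counts exceeded VIM counts in each labelled culture, by 3.32 to 6.21 times.

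**Figure D1:**
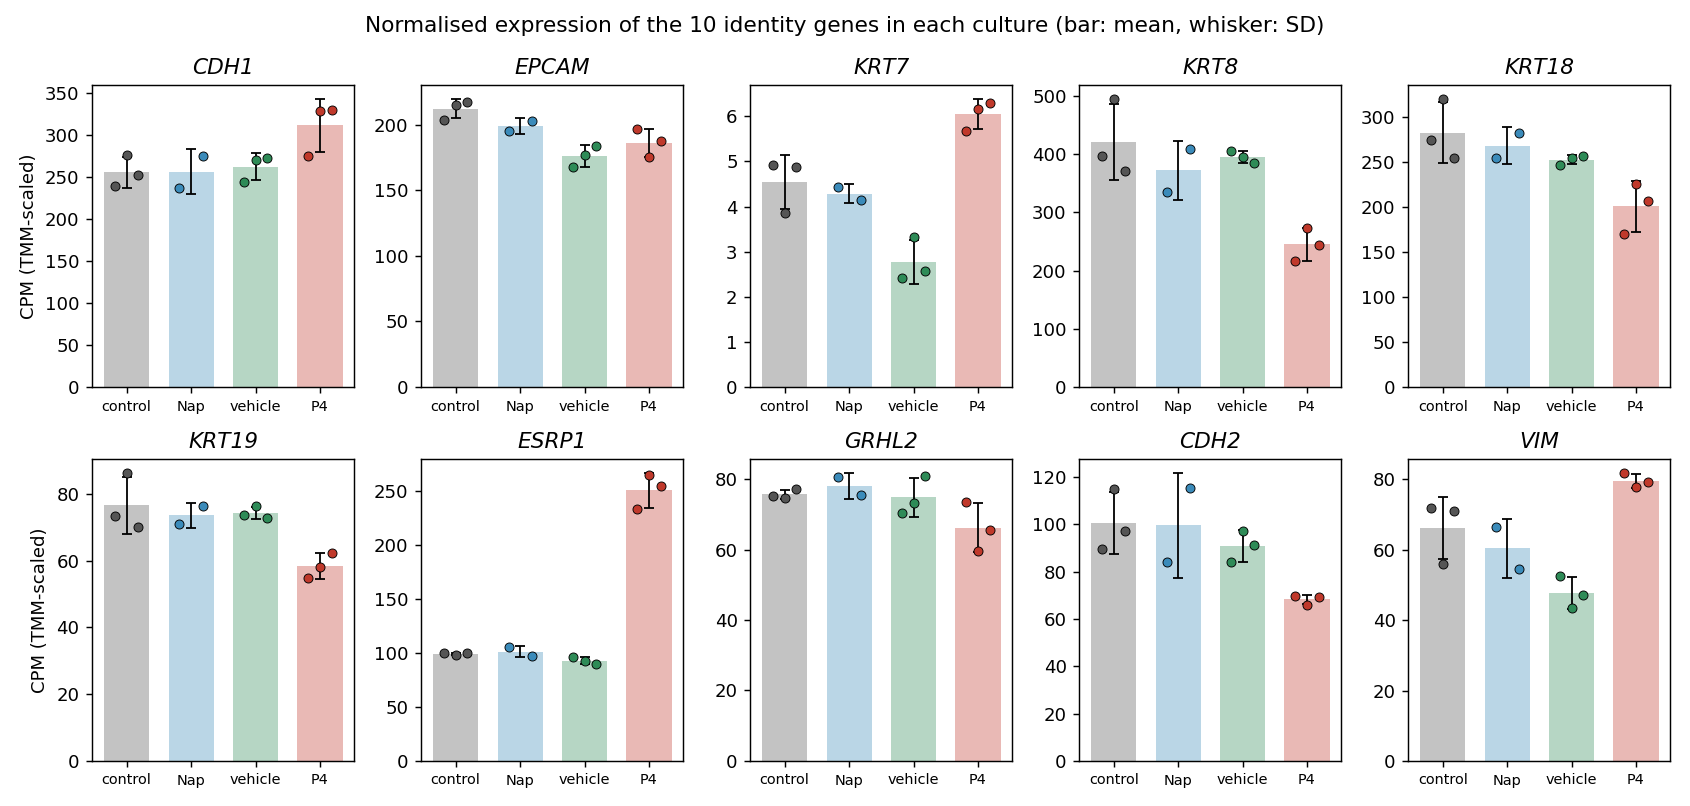
Normalised expression (CPM, TMM-scaled, linear axes from 0) of the 10 genes in the 11 labelled cultures. Points are cultures, bars are group means and whiskers are SD (n = 3, Nap only n = 2); ESRP1 in P4 treated cultures (233 to 265 CPM) stands above all other cultures, and KRT8 (217 to 274 CPM) below them.

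The first question was which identity genes differed between P4 treated and vehicle control cultures. ESRP1, which directs epithelial splicing patterns, had the largest difference of the 10. It was at 233, 265 and 255 CPM in the P4 treated cultures against 96.0, 92.7 and 89.9 CPM in vehicle control. The groups lay far apart, a 2.69-fold rise with a log2 fold change of 1.43 (SE 0.07, adjusted p = 1.7e-08, edgeR quasi-likelihood test). GRHL2, a transcription factor that maintains CDH1 expression in epithelia, was at 73.5, 59.7 and 65.6 CPM with P4 against 70.3, 73.3 and 81.0 CPM. These groups overlapped, and the difference of -0.19 on the log2 scale (95% interval -0.38 to 0.003) did not pass (adjusted p = 0.090). It passed without P4 treated replicate 1 (log2 fold change -0.27, adjusted p = 0.0034) and with upper-quartile normalization (-0.27, adjusted p = 0.023).

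CDH1 was at 275, 328 and 329 CPM in P4 treated cultures and at 244, 270 and 272 CPM in vehicle control. All P4 treated cultures were above the vehicle controls, but the lowest of them by under 3 CPM. The rise was 1.18-fold (log2 0.24, SE 0.08, adjusted p = 0.018, edgeR). This call was lost without vehicle control replicate 1 (adjusted p = 0.072), vehicle control replicate 2 (0.051) or P4 treated replicate 3 (0.089), and with upper-quartile normalization (log2 0.15, adjusted p = 0.087). EPCAM, a homophilic adhesion molecule of epithelia, was at 196, 175 and 187 CPM against 168, 177 and 184 CPM. The groups overlapped (log2 0.07, 95% interval -0.07 to 0.22, adjusted p = 0.38), and the sign turned with upper-quartile normalization (-0.02).

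CDH2, the cadherin of neural and mesenchymal cells, was at 69.5, 66.1 and 69.5 CPM with P4 against 83.9, 97.2 and 91.2 CPM in vehicle control. Every P4 treated culture was below every vehicle control, and the fall was 1.34-fold (log2 -0.42, SE 0.07, adjusted p = 3.5e-04, edgeR). VIM, which encodes the main intermediate filament of mesenchymal cells, went the other way. It was at 81.8, 77.7 and 79.3 CPM against 52.5, 43.4 and 47.1 CPM, a 1.68-fold rise without overlap (log2 0.75, SE 0.08, adjusted p = 1.4e-05, edgeR).

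The keratins were divided. KRT8, the type II chain of the simple epithelial pair, was at 217, 274 and 243 CPM in P4 treated cultures against 406, 395 and 385 CPM in vehicle control. All P4 values were lower, by 1.62-fold on average (log2 -0.70, SE 0.08, adjusted p = 1.6e-05, edgeR). Its partner KRT18 was at 171, 226 and 207 CPM against 247, 255 and 257 CPM, a fall of 1.26-fold (log2 -0.34, SE 0.09, adjusted p = 0.0056, edgeR). KRT19, a type I keratin of ducts and glands, was at 54.8, 58.0 and 62.4 CPM against 73.6, 76.3 and 72.9 CPM, a fall of 1.28-fold (log2 -0.35, SE 0.07, adjusted p = 0.0013, edgeR). None of these 3 keratins overlapped between the groups. Over the 10 members, 8 did not overlap, as did 59.9% of all genes tested. KRT7, a type II keratin of glandular epithelia and low here, was at 5.68, 6.17 and 6.30 CPM against 2.42, 3.32 and 2.58 CPM. It rose 2.12-fold (log2 1.08, SE 0.19, adjusted p = 4.3e-04, edgeR), from 13 to 45 counts per vehicle control culture to 60 to 83 counts with P4.

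Pseudogene reads moved with their parent genes. They made up 22.5 ± 0.640% of the summed counts of KRT8 and its copies in the vehicle controls and 24.6 ± 0.291% after P4 (SD, n = 3). For KRT18 the shares were 16.7 ± 0.788% and 17.5 ± 1.61%. With the pseudogene counts added, KRT8 fell by 0.66 (adjusted p = 2.4e-05) and KRT18 by 0.33 (adjusted p = 0.0042) on the log2 scale in the edgeR test.

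**Figure D2:**
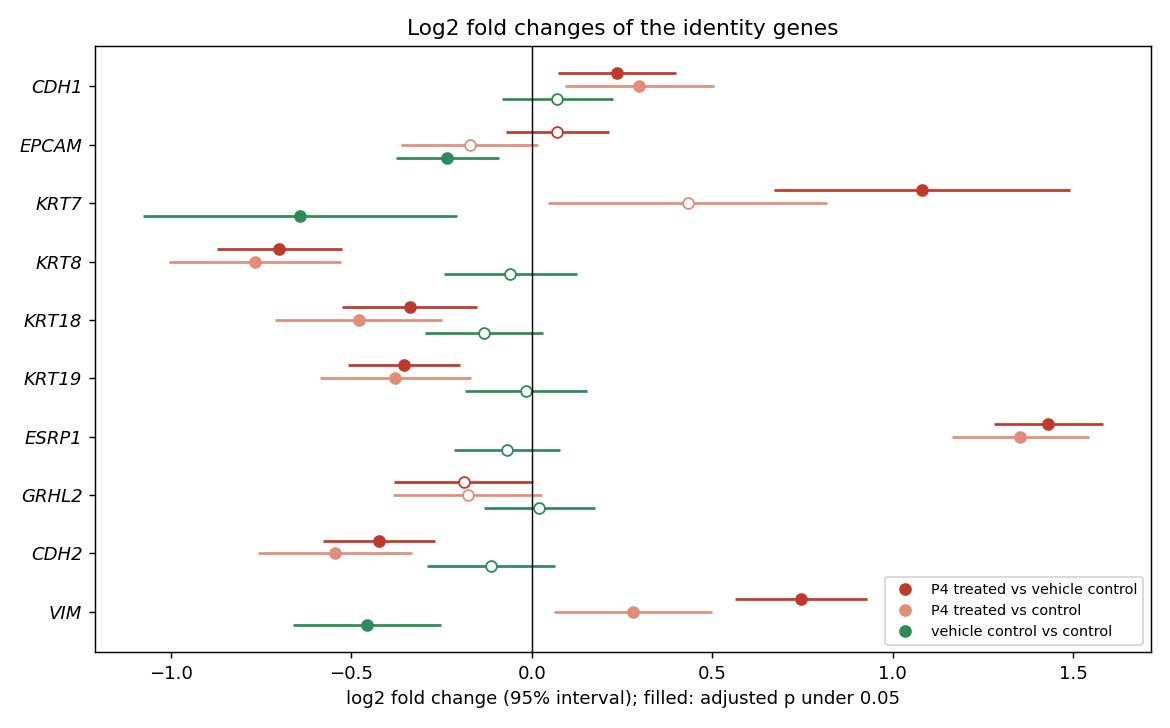
Log2 fold changes of the 10 genes with 95% intervals in 3 comparisons; filled points have an adjusted p under 0.05 (edgeR). ESRP1 (1.43) and KRT8 (-0.70) are the extremes of P4 treated against vehicle control, and VIM and KRT7 lie on opposite sides of 0 in the P4 and vehicle comparisons.

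Ratios of 2 members within a culture do not depend on library scaling. CDH1 counts were 3.36 to 4.22 times VIM counts in P4 treated, 4.64 to 6.21 times in vehicle control and 3.32 to 4.92 times in control cultures. The mean log2 ratio was 1.96 ± 0.18 with P4, 2.46 ± 0.22 in vehicle control and 1.95 ± 0.30 in control (SD, n = 3). P4 treated cultures were below vehicle controls without overlap (difference -0.50) but overlapped with untreated controls (difference 0.01, exact two-sided permutation p = 0.9). CDH2 was at 0.201 to 0.253 of CDH1 with P4, 0.335 to 0.360 in vehicle control and 0.374 to 0.418 in control, a difference of -0.65 log2 units from vehicle control. The KRT8 to KRT18 ratio was 1.18 to 1.27 with P4 and 1.497 to 1.642 in vehicle control, a difference of -0.36. The 3 differences from vehicle control each had an exact two-sided permutation p = 0.1, the smallest that 3 against 3 cultures allow, so none of them could pass 0.05. Adjustment over the 3 ratios leaves that value at 0.1.

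**Figure D3:**
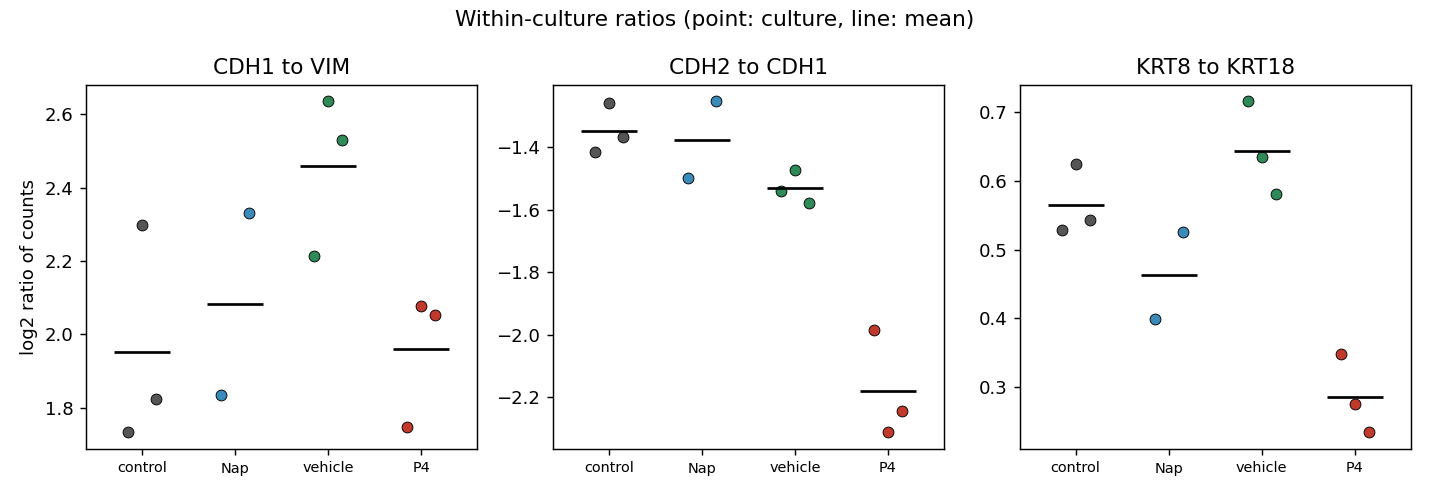
Log2 ratio of raw counts (0.5 added to each) of 2 genes within each culture, by group; points are cultures, lines are means, and axes do not start at 0. P4 treated cultures lie below all others in CDH2 to CDH1 and KRT8 to KRT18, while in CDH1 to VIM they lie within the range of the controls.

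The choice of reference mattered for some members. Against untreated control cultures, which are other samples than the vehicle controls while the P4 treated cultures are shared, 7 of 10 members passed, 3 higher and 4 lower, while 54.8% of 16620 genes passed (26.8% higher, 28% lower). The groups did not overlap in 9 members, and in 61.2% of all genes. CDH1 (log2 0.30, adjusted p = 0.015), ESRP1 (1.35, 1.6e-09) and VIM (0.28, 0.030) were higher with P4 in the edgeR test. KRT8 (-0.77, adjusted p = 1.9e-05), KRT18 (-0.48, 0.0013), KRT19 (-0.38, 0.0038) and CDH2 (-0.54, 2.1e-04) were lower. KRT7 had a log2 fold change of 0.43 (SE 0.18, adjusted p = 0.055), EPCAM of -0.17 (SE 0.09, adjusted p = 0.12) and GRHL2 of -0.18 (SE 0.10, adjusted p = 0.13). KRT7 passed with RLE normalization (adjusted p = 0.0498), with all 4 groups in the fit (0.029) or without P4 treated replicate 1 (0.045), and EPCAM with upper-quartile normalization (0.031). GRHL2 passed with upper-quartile normalization (0.047) or without P4 treated replicate 1 (0.036). The calls of CDH1 were lost without control replicate 1 (adjusted p = 0.095) or P4 treated replicate 3 (0.085), and that of VIM without control replicate 2 (0.16), P4 treated replicate 3 (0.070) or with upper-quartile normalization (0.075).

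The vehicle itself differed from untreated medium in 3 members, all lower, against 22.6% of 16673 genes passing (11.9% higher, 10.7% lower). The groups did not overlap in 4 members and in 39.4% of all genes. VIM was at 71.8, 56.0 and 70.9 CPM in control, above the 3 vehicle control values given above, a log2 fold change of -0.46 (SE 0.10, adjusted p = 0.0027, edgeR). KRT7 was at 4.92, 3.85 and 4.87 CPM in control and differed by -0.64 (SE 0.21, adjusted p = 0.031). EPCAM was at 204, 215 and 217 CPM in control and differed by -0.23 (SE 0.07, adjusted p = 0.019). The other 7 members had log2 fold changes from -0.13 to 0.07 and did not pass. VIM and KRT7 were thus lowest in vehicle control, and their differences between P4 treated and vehicle control were larger than those between P4 treated and control (0.75 and 0.28 for VIM, 1.08 and 0.43 for KRT7). The vehicle control cultures are shared between these comparisons. Only the call of VIM stayed without each single replicate (adjusted p up to 0.028), while 1 member passed without vehicle control replicate 1 or replicate 3, and EPCAM was lost without vehicle control replicate 2 as well (adjusted p = 0.097). KRT7 was also lost without control replicate 1 (adjusted p = 0.080) or 3 (0.085) and with DESeq2 (0.094).

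Nap alone, with 2 cultures, showed no member past the threshold against control. No gene of 17166 passed in the edgeR test (0%), 217 had an unadjusted p under 0.05, and DESeq2 called 1 gene. The groups did not overlap in 1 member and in 12.2% of all genes. Member log2 fold changes ran from -0.17 (KRT8, 95% interval -0.42 to 0.09) to 0.06 (GRHL2, -0.13 to 0.24), so differences of the size seen for KRT19 or CDH1 with P4 could have been missed for some members. Against Nap only, 8 members passed with P4 (49.7% of 16987 genes passed, 24.8% higher and 24.9% lower, and 68.1% did not overlap against 9 members), and the P4 treated cultures are shared with the comparisons above. The log2 fold changes were 1.31 for ESRP1, 0.50 for KRT7, 0.40 for VIM, 0.28 for CDH1, -0.33 for KRT19, -0.42 for KRT18, -0.54 for CDH2 and -0.60 for KRT8. Only 3 members passed there without Nap only replicate 2, when KRT18 (adjusted p = 0.13), KRT19 (0.13), CDH2 (0.093), VIM (0.12) and KRT7 were lost. KRT7 (adjusted p = 0.048) was lost with upper-quartile normalization (0.089), with no filter (0.091), with DESeq2 (0.15) and without either Nap only replicate (0.12 and 0.19) or P4 treated replicate 2 (0.082) or 3 (0.15). CDH1 (adjusted p = 0.035) was lost with upper-quartile normalization (0.098) and without Nap only replicate 1 (0.32) or P4 treated replicate 3 (0.13). Vehicle control differed from Nap only in 1 member, VIM (log2 -0.34, SE 0.09, adjusted p = 0.011, edgeR), with 23.8% of 16935 genes passing (12.7% higher, 11.2% lower). The groups did not overlap in 4 members and in 49.6% of all genes. That call was lost without vehicle control replicate 2 (adjusted p = 0.10) or 3 (0.051), without Nap only replicate 1 (0.13) and with all 4 groups in the fit (0.069).

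Lists of related genes were read in the comparison of P4 treated with vehicle control, where 26.6% of genes were higher, 26.5% were lower and the median log2 fold change over all genes tested was -0.01. Of 21 other keratins, 17 had too few counts to be tested, 6 of them at 0 in all 6 cultures. The 4 tested all passed: KRT17, a stress-inducible type I keratin (log2 2.37, SE 0.42), KRT80 (2.05, SE 0.32) and KRT10, a keratin of differentiating epidermis (0.90, SE 0.13), were higher and KRT23 (-2.01, SE 0.24) was lower. KRT17 had as few as 2 counts in a culture and could enter the test through its higher group. KRT80 rose from 3.41 ± 0.900 to 14.9 ± 6.29 CPM and KRT10, the most abundant of the list, from 7.81 ± 0.820 to 14.95 ± 0.883 CPM (SD, n = 3).

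Of 25 partners of the cadherins and of desmosomes, 24 were tested, 11 were higher, 10 were lower and 3 did not pass (median log2 fold change 0.17). The catenin genes of the list were divided. CTNNA1 (α-catenin), the most abundant of the list, rose from 464 ± 22.3 to 565 ± 32.4 CPM (log2 0.28, SE 0.06), and CTNNAL1 rose by 0.65 (SE 0.06). CTNNB1 (β-catenin) fell from 434 ± 4.73 to 343 ± 1.78 CPM (-0.35, SE 0.06) and CTNND1 from 240 ± 12.4 to 174 ± 7.89 CPM (-0.47, SE 0.06). The desmosomal cadherins DSG2 (0.34), DSC2 (0.47) and DSC3 (0.38) rose. Genes of the plaque and related linkers went both ways, with PKP2 (0.30), PKP4 (0.50) and PPL (0.45) higher and JUP (plakoglobin, -0.84), EVPL (-0.63), PKP3 (-0.55) and DSP (desmoplakin, -0.19, adjusted p = 0.0497, edgeR) lower. NECTIN4 (-1.19, SE 0.33), a nectin of adherens junctions, was the one gene of the list with a fall beyond 1 log2 unit, and none rose that far. It was low, with 10 to 41 counts per culture (2.53 ± 0.724 CPM in vehicle control, 1.19 ± 0.542 CPM with P4). The cadherin gene CDH6, with 832 to 2581 counts, fell almost as far, from 190 ± 2.49 to 95.6 ± 28.3 CPM (-0.996, SE 0.18). AFDN (afadin, which links nectins to actin) rose by 0.90 (SE 0.09).

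Of 22 other epithelial regulators and surface markers, 21 were tested, 2 were higher, 5 were lower and 14 did not pass (median -0.15). The epithelial transcription factors ELF3 (from 28.1 ± 0.737 to 7.98 ± 1.78 CPM, log2 -1.82) and EHF (from 22.1 ± 0.783 to 8.315 ± 2.83 CPM, -1.42) fell, and KLF5 (from 31.1 ± 2.33 to 80.8 ± 12.4 CPM, 1.36) rose. MAL2, the most abundant of the list, rose from 234 ± 11.8 to 341 ± 12.7 CPM (0.53). ESRP2, the paralogue of ESRP1, was at 26.1 ± 4.26 and 24.6 ± 5.25 CPM (-0.11, SE 0.15, adjusted p = 0.55, edgeR) and the paralogue GRHL1 of GRHL2 at 16.6 ± 0.671 and 15.1 ± 1.40 CPM (-0.15, SE 0.11, adjusted p = 0.27).

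Of 12 EMT transcription factors, 6 were tested, 2 were higher, 2 were lower and 2 did not pass (median 0.18). ZEB1, a repressor of CDH1, rose from 8.65 ± 1.00 to 21.97 ± 6.39 CPM (log2 1.32, SE 0.20, adjusted p = 1.3e-04, edgeR), in the same cultures in which CDH1 and ESRP1 were higher. TCF4 fell from 86.4 ± 1.36 to 36.5 ± 3.22 CPM (-1.25, SE 0.08). TWIST1 rose by 0.37 and TCF3 fell by 0.20, and both of these small differences were close to the threshold (adjusted p = 0.023 and 0.035). SNAI1, at 1.77 ± 0.212 and 1.79 ± 0.213 CPM, had a log2 fold change of 0.01 (SE 0.25).

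Of 18 mesenchymal markers beside CDH2 and VIM, 13 were tested, 5 were higher, 5 were lower and 3 did not pass (median -0.14). The smooth muscle genes ACTA2 (from 4.00 ± 0.413 to 12.6 ± 0.848 CPM, log2 1.65) and TAGLN (from 18.9 ± 1.03 to 41.8 ± 7.13 CPM, 1.14) rose, as did FN1 (fibronectin, 0.34), TNC (0.53) and CALD1 (0.31). NES (nestin, from 7.52 ± 1.84 to 2.16 ± 0.580 CPM, -1.84) and COL1A2, the most abundant of the list in vehicle control (from 264 ± 10.8 to 83.6 ± 28.6 CPM, -1.67), fell, with S100A4 (-0.98), LGALS1 (-0.90) and COL1A1 (-0.44). In vehicle control against untreated control, 1 of these markers was higher (MMP2, log2 1.47), 6 were lower (among them TAGLN, -1.43, and TNC, -1.47) and 6 did not pass, beside 11.9% of all genes higher and 10.7% lower. TAGLN was at 52.1 ± 8.68 CPM in untreated control, so its mean with P4 was not above that of control. For TNC the fall with vehicle was larger than the rise with P4. ACTA2 (5.08 ± 1.85 CPM) and FN1 (63.5 ± 11.3 CPM) had control means below the means with P4 (12.6 and 93.2 CPM). P4 treated cultures were not tested against control for this list. Among the 15 markers of other cell types, 4 were tested, and HAND2 (-1.38), PDGFRA (-1.41) and THY1 (-2.05) were lower with P4, from at most 40, 18 and 12 counts in any of the 6 cultures. They had as few as 8, 4 and 1 counts and could enter the test through their higher group, and 0 genes of the list passed where at least 10 counts were required in every culture. NCAM1, at 1.65 ± 0.538 and 1.93 ± 0.839 CPM, did not pass.

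**Figure D4:**
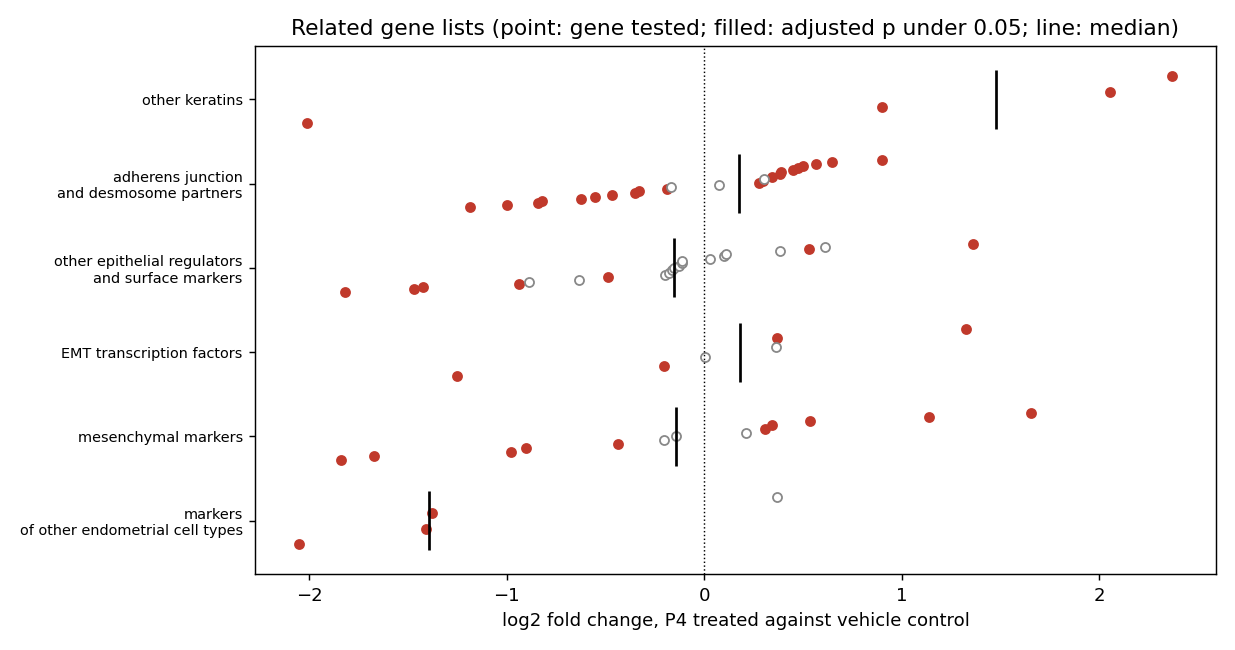
Log2 fold changes of P4 treated against vehicle control for the genes tested in 6 related lists; each point is a gene, filled points have an adjusted p under 0.05 (edgeR) and black lines are list medians. Each list with more than 4 genes tested holds genes on both sides of 0, such as ZEB1 (1.32) and TCF4 (-1.25) among the EMT transcription factors.

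Across the 11 labelled cultures, the protein-coding genes whose log2 CPM followed each member most closely were searched among 9436 genes with a mean of at least 10 CPM. The cultures share their groups, and the correlations are given as descriptions. ESRP1 was followed by TRIB3 (Pearson r = 0.998) and MIA2 (0.997), of which TRIB3 went from 17.8 CPM in vehicle control to 363 CPM with P4. KRT8 was followed by HSPB1 (0.978) and CHMP1A (0.967), KRT18 by LRRC14 (0.969) and PEA15 (0.957), and KRT19 by MYL6B (0.978) and STAP2 (0.969). CDH1 was followed by KLF13 (0.959) and IER5 (0.953), and EPCAM by FSTL1 (0.969) and NIPSNAP3A (0.947). CDH2 was followed by DNALI1 (0.966) and TP53INP1 (0.965), VIM by MAK16 and EEF1E1 (both 0.9503), and GRHL2 by CNTNAP2 (0.963) and TOR1B (0.947). KRT7, whose mean was under 10 CPM, was not searched.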

How the data were processed

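The deposited values are whole-number read counts per gene, not normalised. The authors sequenced stranded total RNA libraries as single-end reads, which were trimmed (Cutadapt), quality filtered, mapped uniquely (Subread) and assigned to genes (featureCounts) on GENCODE release 31. Versions and strand setting are not given in the sources used here. The number of columns of per-sample values not used was 0.

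Names, positions and lengths came from GENCODE 29, which named 58587 of 60662 genes, and 2054 more came from a table of names. edgeR 4.0.16 (R 4.3.3) was used with TMM, filterByExpr (minimum count 10) and robust quasi-likelihood tests over all genes, Benjamini-Hochberg adjusted, with a threshold of 0.05. The SE is the log2 fold change divided by the square root of F. Each of the 6 comparisons used its own groups only. CPM used TMM factors over all 17 columns. Replicate pairs of a group differed by more than sampling noise (chi-square per degree of freedom 1.54 to 20.6). Methods were tested on simulated counts. Python 3.11.15 and scipy 1.17.1 gave the exact tests.

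Members and lists were chosen with earlier results of these data known. All 10 members were named in the comparisons. In each list, genes beyond 1 log2 unit that passed (up to 4 per direction) and the most abundant gene were named, while the choice of other list genes followed their values. One result under this rule is left out here. The alternatives were DESeq2 1.42.0, RLE and upper-quartile normalization, other filters, all 4 groups in the fit, a replicate block and each replicate left out. The addition of pseudogene counts was chosen after seeing the data. The 95% intervals of fold changes cover the spread between cultures, and the floor of 3 counts covers counting error only.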

Additional observations from a re-analysis of the deposited data

Results flagged for a closer look

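The 6 columns whose labels contradict each other were outside every comparison. In 4 members at least 1 of these columns stood above the highest untreated control culture. The share of all genes with such a column was not determined. With 6 columns set against 3 control cultures, the count of 4 is a description only. For CDH1, 3 of the 6 columns did, up to 332 CPM against at most 276 CPM in control. For ESRP1, 3 did, up to 254 CPM against at most 100.1 CPM. For VIM, 3 did, up to 86.1 CPM against at most 71.8 CPM, and for KRT7, 1 did, at 6.52 CPM against at most 4.92 CPM. The flag looked only above the control range, and other members had columns below it. EPCAM was at 184 to 198 CPM in all 6 columns, against at least 204 CPM in control. In the 3 columns named with P4, KRT8, KRT18, KRT19 and CDH2 were also below the lowest control culture. GRHL2 was below it there too, by little (at most 74.0 CPM against at least 74.5 CPM). In the 3 columns named without P4, ESRP1 was below the control range (91.7 to 95.8 CPM against at least 97.8 CPM). All 6 columns name PSAT1, but whether P4 was added cannot be told from their labels, so no difference was tested.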

How the results depend on the processing

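For P4 treated against vehicle control, 8 members passed under every alternative that kept all cultures (with upper-quartile normalization GRHL2 in place of CDH1), and 7 to 9 with a replicate left out. Over all genes, 7474 to 9023 passed under the former and 7083 to 9953 with a replicate left out. The log2 fold changes of ESRP1 (1.34 to 1.49), VIM (0.66 to 0.82), KRT8 (-0.79 to -0.62), CDH2 (-0.51 to -0.37), KRT7 (0.99 to 1.251), KRT19 (-0.44 to -0.31) and KRT18 (-0.43 to -0.23) kept sign and call under all of them. Upper-quartile normalization moved the median of all genes to -0.10 and the share of calls that were higher from 50.1% to 40.7%, and reversed EPCAM (-0.015). Over all 810 alternative values of member log2 fold changes in the 6 comparisons, 737 kept sign and side of the threshold, 37 lost and 14 gained the call, and 22 changed sign, all of the last for members that had not passed.

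Counts per list moved as follows, given without the share of all genes called under the same setting. With no filter, 8 other keratins and 6 markers of other cell types passed; with at least 10 counts in every culture, 0 of the latter, and with all 4 groups in the fit, 5. EMT transcription factors fell to 2 with DESeq2 and ranged from 2 to 4 with a replicate left out. Members passing ranged from 3 to 9 for P4 treated against Nap only, from 1 to 3 for vehicle control against control and from 0 to 2 for vehicle control against Nap only with a replicate left out; the last was 2 with upper-quartile normalization or at least 10 counts in every culture and 0 with all 4 groups. Genes called ranged from 5502 to 9719, from 1908 to 3995 and from 2355 to 3803 in the same 3 comparisons with a replicate left out. The last was 2262 with DESeq2 and 1912 with all 4 groups. For Nap only against control it was 0 to 5 with a replicate left out, 3 with no filter, and 1 with DESeq2 or all 4 groups.

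Sign changes of members near 0 came with 2 settings and with replicates left out. GRHL2 was -0.0035 with no filter for vehicle control against control, and CDH2 was 0.015 with upper-quartile normalization for Nap only against control. With a replicate left out, the ranges for vehicle control against control were -0.138 to 0.068 (KRT8), -0.071 to 0.075 (KRT19) and -0.038 to 0.049 (GRHL2). For vehicle control against Nap only they were -0.042 to 0.155 (CDH1), -0.026 to 0.240 (KRT8), -0.019 to 0.072 (KRT19), -0.093 to 0.019 (GRHL2) and -0.309 to 0.132 (CDH2). For Nap only against control they were -0.095 to 0.116 (CDH1), -0.144 to 0.034 (KRT18), -0.103 to 0.050 (KRT19), -0.014 to 0.097 (ESRP1), -0.251 to 0.205 (CDH2) and -0.267 to 0.017 (VIM). The cause was not tested.

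With the longest transcript as gene length, levels in control cultures were 52.2 (CDH1), 123 (EPCAM), 2.59 (KRT7), 147 (KRT8), 136 (KRT18), 55.1 (KRT19), 26.1 (ESRP1), 14.4 (GRHL2), 23.2 (CDH2) and 24.8 RPKM (VIM), and ESRP1 was 20.7 with the total count as library size. The within-culture ratios kept their sign under all alternatives, between -0.62 and -0.39 for CDH1 to VIM, -0.39 and -0.32 for KRT8 to KRT18 and -0.75 and -0.58 for CDH2 to CDH1.

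Same-numbered deviations from group means over 15656 genes correlated at -0.09 to 0.07 in the comparisons with 3 pairs, so no pairing by replicate number was seen there. Such deviations sum to 0 within a group, so these values cannot exclude pairing. With a replicate block, the members passing numbered 8, 7, 6, 3, 1 and 0 in the 6 comparisons in the order P4 treated against vehicle control, control and Nap only, vehicle control against control and Nap only, and Nap only against control. Genes called with the block are not given beside these counts, except for the last comparison. The block took the calls of CDH1 and KRT7 from P4 treated against Nap only (adjusted p = 0.13 and 0.21) and raised the genes called for Nap only against control from 0 to 42, where the 2 pairs correlated at 0.25 and 0.32. The deviations of the 2 Nap only cultures mirror each other, so these 2 correlations are not independent. Depth limits KRT7 and most other keratins, where 3 counts equal 0.158 to 0.559 CPM.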

Other observations

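The 6 columns without a condition, all named PSAT1, fall into 3 whose column name includes P4 and 3 whose name does not. On P4 the names contradict the samples' titles. In the columns named with P4, ESRP1 was at 248 to 254 CPM, VIM at 83.0 to 86.1, CDH1 at 306 to 332, KRT8 at 222 to 276, KRT18 at 184 to 227, KRT19 at 47.5 to 59.8 and CDH2 at 66.2 to 72.9 CPM. In the columns named without it, ESRP1 was at 91.7 to 95.8 CPM, VIM at 64.0 to 69.9, CDH1 at 237 to 267, KRT8 at 367 to 412, KRT18 at 258 to 264, KRT19 at 72.9 to 80.9 and CDH2 at 80.0 to 98.3 CPM. These 7 members did not overlap between the sets of columns. The share of all genes without overlap was not determined here, so the count is not a trait of the members. Between P4 treated and vehicle control cultures that share was 59.9%. EPCAM (191 to 198 and 184 to 196 CPM), GRHL2 (64.4 to 74.0 and 70.2 to 75.6 CPM) and KRT7 (3.72 to 6.52 and 3.40 to 4.31 CPM) overlapped. The values are those of the columns as named, and no test was made.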
